A study of Rattus norvegicus with 6 samples.

Results

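Nuclear genes for the subunits of respiratory complexes II, III and IV, of cytochrome c and of ATP synthase (complex V) were compared between vehicle and olanzapine rats. They were taken by symbol from the gene table: Sdha to Sdhd, Cyc1, Cycs, and every symbol that begins with Uqcr, Atp5, Cox5, Cox6b, Cox6c, Cox7b or Cox7c, with the row of highest mean kept for each symbol. This gave 39 genes of the 26406 rows in the table, from 42 matching rows. RNA came from the gastrocnemius, the large calf muscle, of 6 male Sprague Dawley rats (strain Crl:SD) with free access to chow and water. The vehicle group, rats 3, 9 and 11, weighed 356 to 382 g and received vehicle through a jugular catheter for 24 h. The olanzapine group, rats 4, 10 and 12, weighed 366 to 400 g and received the antipsychotic olanzapine in saline, 1 mg per 100 g body weight over 0.5 h and then 0.04 mg per 100 g per hour for 23.5 h. All 6 rats also shared the catheter surgery and isoflurane anesthesia at tissue collection. The comparison asked how muscle transcripts differ after a 24 h infusion of the drug.

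Complex II oxidizes succinate in the TCA cycle and passes its electrons to ubiquinone. Complex III moves them from ubiquinone to cytochrome c, complex IV from cytochrome c to oxygen, and complex V uses the proton gradient that results to make ATP. Complex II is encoded wholly in the nucleus, whereas complexes III, IV and V also hold subunits encoded by mitochondrial DNA. In muscle these complexes are most abundant in slow and in fast oxidative fibers and least abundant in the fast glycolytic IIb fibers.

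Levels are given in FPKM, a read density corrected for the exon length of a gene and the size of the library, so that values can be set side by side between genes. Summed over all rows a rat had 945068 to 1183010 FPKM, with values above 0 for 13996 to 14795 genes. The number of reads is unknown, but the steps between low values place the depth of the other rats at 0.441 (vehicle rat 11) to 0.917 (olanzapine rat 4) of that of vehicle rat 3. The 6 skeletal muscle markers checked summed to 87600 to 147908 FPKM per rat. In bulk muscle, fewer fibers of a type and less RNA per fiber cannot be told apart. Slow fiber markers differed between the groups: 5 of 5 fell by limma, with a median log2 fold change of -2.87, and their summed FPKM was 7053 to 10978 in the vehicle rats and 920 to 2429 in the olanzapine rats. The 3 markers of fast IIb fibers summed to 3015 to 7540 FPKM in the vehicle rats and 9607 to 14889 FPKM in the olanzapine rats, and 0 of 3 passed the test. The part of these marker differences in the subunit values was not tested.

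The tested subunits together held 3.02% ± 0.376 of the total FPKM of a vehicle rat and 3.20% ± 0.163 of that of an olanzapine rat (SD, n = 3 each). Of the 39 genes, 37 had a mean of at least 1 FPKM and were tested, and 32 had a mean of at least 100 FPKM. No subunit passed an adjusted p under 0.05 by limma on log2(FPKM + 1) in either direction, where 0.506% of the 10285 tested genes did (0.457% lower and 0.0486% higher). At an unadjusted p under 0.05 the count was 0 as well, against 13.2% of all tested genes (9.45% lower and 3.79% higher). The smallest adjusted p of a subunit was 0.393 by limma, for Atp5h. In 4 of the 37 subunits (10.8%) the 3 rats of one group all lay outside the range of the other, against 19.7% of all tested genes. Of these 1 was lower in the olanzapine rats, Sdhb, against 14.6% of all tested genes, and 3 were higher, Uqcrh, Uqcr10 and Atp5g1, against 5.12%. These backgrounds were not matched for level. When the cutoff for testing was raised to 10 FPKM, 8.57% of the subunits were higher without overlap, against 9.45% of all genes tested. With 1 rat left out, fewer rats have to separate and the share of all genes without overlap grows as well. Without vehicle rat 3, 17 subunits (45.9%) were higher without overlap, against 11.5% of all tested genes. The count was 8 (21.6%) without olanzapine rat 4, against 7.69%, and 5 (13.5%) without vehicle rat 11, against 7.37%. It was near the share of all tested genes without each other rat. These counts were 3 (8.11%) without vehicle rat 9, against 8.03%, and 4 (10.8%) without olanzapine rat 10, against 10.4%. Without olanzapine rat 12 the count was 3 (8.11%), against 7.65%. Subunits lower without overlap numbered 4 (10.8%) without vehicle rat 9, against 25.3% of all tested genes, and 5 (13.5%) without olanzapine rat 10, against 19.7%.

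The precision of 3 rats per group bounds what could be seen. All 37 of the 95% confidence intervals of the log2 fold change included 0, and 34 lay wholly between -1 and 1. Estimated changes were small: 36 of 37 subunits were below 0.5 in absolute log2 fold change, as were 83.8% of all tested genes. The estimates leaned upward. The log2 fold change was above 0 in 29 of 37 subunits (78.4%), against 35.7% of all tested genes, and below 0 in 8, against 64.3%. Its median was 0.15 against -0.11 over all tested genes. This background was not matched for level, and its median depended on level. When the cutoff for testing was raised to 10 FPKM, the median over the 3936 genes left was -0.008. Part of the contrast with all tested genes can thus follow from level. After scaling by median-ratio size factors, which moved the median of all tested genes to 0.03, the log2 fold change was above 0 in 31 of 37 subunits (83.8%) against 53.4% of all genes. These shares are descriptions, since the subunits share the same 6 libraries.

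The study's methods name a likelihood ratio test from a count package. Its counterpart here, a Poisson test on group sums of FPKM, takes no account of the spread between rats. It also treats FPKM as counts, so at the same fold change its p is smaller for a more abundant gene. Of the subunits 32 had a mean of at least 100 FPKM, and the background was not matched for level. At an unadjusted p under 0.05 it marked 24 of 37 subunits against 13.9% of all tested genes, with 6 lower against 7.81% and 18 higher against 6.1%. Atp5e, the epsilon subunit of the ATP synthase head, shows the gap between both tests. Its level was 3392, 2010 and 2053 FPKM in vehicle rats 3, 9 and 11 and 3003, 2431 and 4293 FPKM in olanzapine rats 4, 10 and 12. Vehicle rat 3 exceeded olanzapine rats 4 and 10, so the groups overlapped. The Poisson p was 1.27e-50, while limma gave a log2 fold change of 0.39 (SE 0.30) with an adjusted p of 0.566.

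**Figure D1:**
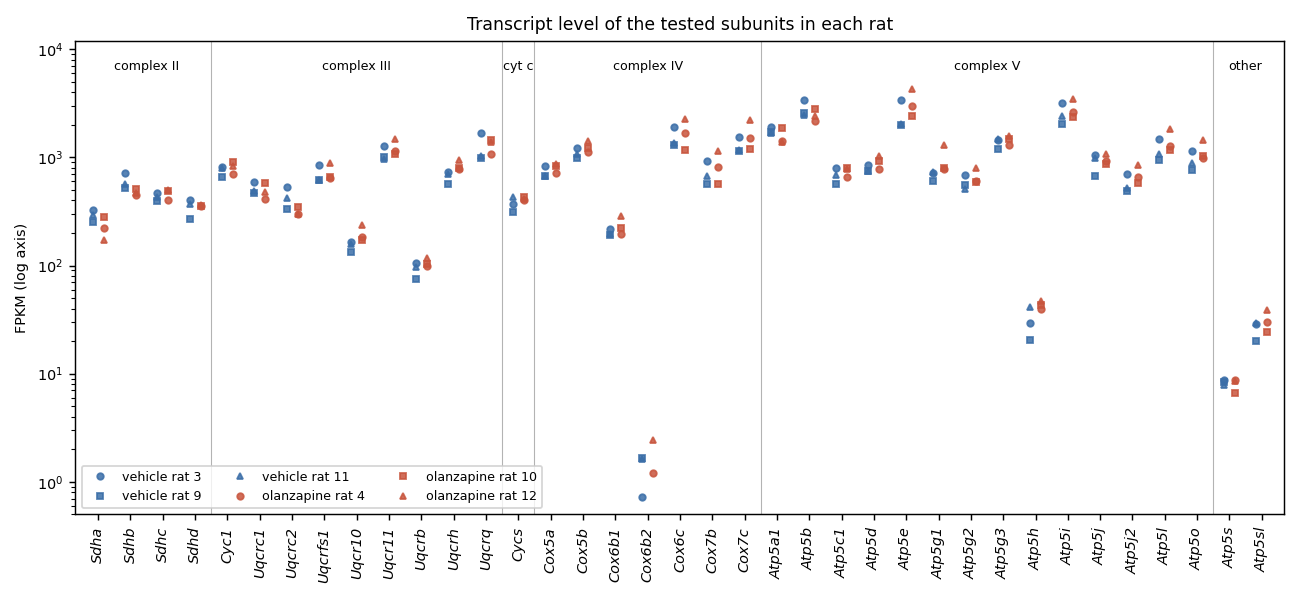
FPKM of the 37 tested subunits in each rat on a log axis, vehicle rats in blue and olanzapine rats in red, with lines between complexes. Of these subunits 32 had a mean of at least 100 FPKM, and Cox6b2, the testis form of a complex IV subunit, was lowest (its 0 in olanzapine rat 10 cannot be drawn on this axis).

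Promoter sequences were examined because nuclear subunit genes are known targets of the nuclear respiratory factors NRF-1 and GABP (also called NRF-2) and of the estrogen-related receptors. RefSeq (GRCr8) gave a window of 250 bases before to 50 bases after the start for 32 of the 39 genes, and 15 of these held at least 1 of 3 motifs searched on both strands. The NRF-1 core GCATGCGC stood in 7 (21.9%), against 2.66% of 27457 rat promoters and 5.68% of 7154 promoters of tested genes. The GABP core CCGGAAG stood in 10 (31.2%), against 9.22% and 18.7%. The estrogen-related receptor site TNAAGGTCA stood in 2, Sdhd and Atp5g3 (6.25%), against 1.15% and 0.517%. A match is only a run of letters and no evidence of binding. The windows of Sdhb and Uqcrc2, which were low relative to most other subunits in the olanzapine rats, of Uqcrh, which was higher without overlap, and of Cycs, a textbook NRF-1 target, are given 5′ to 3′ on the gene's strand, with motif matches in capitals (CTTCCGG is the GABP core on the other strand). The window of Sdhb is chr5:158547684-158547983 on the plus strand, that of Uqcrc2 is chr1:184598990-184599289 on the plus strand, that of Uqcrh is chr5:134790833-134791132 on the minus strand and that of Cycs is chr4:80984718-80985017 on the minus strand. The Cycs window belongs to the RefSeq gene, whereas the row kept for the Cycs level lies on chromosome 18.
Sdhb: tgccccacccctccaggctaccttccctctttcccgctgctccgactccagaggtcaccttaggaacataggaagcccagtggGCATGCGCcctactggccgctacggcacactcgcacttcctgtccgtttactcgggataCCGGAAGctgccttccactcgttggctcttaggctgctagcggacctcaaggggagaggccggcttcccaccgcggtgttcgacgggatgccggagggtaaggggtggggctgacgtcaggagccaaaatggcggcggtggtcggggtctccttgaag
Uqcrc2: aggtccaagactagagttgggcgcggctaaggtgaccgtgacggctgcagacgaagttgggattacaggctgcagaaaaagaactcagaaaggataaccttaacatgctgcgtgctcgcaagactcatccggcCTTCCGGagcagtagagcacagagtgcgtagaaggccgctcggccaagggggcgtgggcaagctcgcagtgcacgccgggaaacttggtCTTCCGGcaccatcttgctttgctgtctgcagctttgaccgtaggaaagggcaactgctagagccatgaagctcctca
Uqcrh: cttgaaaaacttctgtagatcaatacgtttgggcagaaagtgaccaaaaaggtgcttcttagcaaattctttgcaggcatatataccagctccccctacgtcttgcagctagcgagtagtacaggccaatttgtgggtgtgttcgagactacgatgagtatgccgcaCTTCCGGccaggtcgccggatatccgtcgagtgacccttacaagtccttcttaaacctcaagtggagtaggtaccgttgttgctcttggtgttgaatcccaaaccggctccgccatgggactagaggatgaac
Cycs: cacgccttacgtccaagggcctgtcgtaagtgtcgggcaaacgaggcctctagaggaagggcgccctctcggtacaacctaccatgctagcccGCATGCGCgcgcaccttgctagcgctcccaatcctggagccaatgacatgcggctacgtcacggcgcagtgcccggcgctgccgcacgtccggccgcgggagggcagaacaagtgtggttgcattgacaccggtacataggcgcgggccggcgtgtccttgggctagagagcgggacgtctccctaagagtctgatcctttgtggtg
Counting the start as 0, Sdhb held the NRF-1 core from -167 to -160 and the GABP core from -108 to -102. In Uqcrc2 the GABP core stood at -117 to -111 and again at -28 to -22, in Uqcrh at -83 to -77, and Cycs held the NRF-1 core at -157 to -150. Sdhb and Uqcrc2, with estimates below 0, and Uqcrh, with an estimate above 0, are among the 10 genes with a GABP core. Their intervals all included 0, and whether a motif goes with the fold change was not tested.

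Complex II has a catalytic dimer, made of the flavoprotein Sdha that oxidizes succinate and the iron-sulfur protein Sdhb, and a membrane anchor of Sdhc and Sdhd that binds ubiquinone. Both transcripts of the dimer had estimates below 0 and both of the anchor had estimates above 0, as deposited and with size factors. Sdha had 330, 252 and 292 FPKM in vehicle rats 3, 9 and 11 and 225, 282 and 174 FPKM in olanzapine rats 4, 10 and 12. Olanzapine rat 10 lay within the vehicle range, and the log2 fold change was -0.38 (SE 0.22, adjusted p = 0.477 by limma). Sdhb was at 723, 522 and 573 FPKM in the vehicle rats and at 448, 513 and 473 FPKM in the olanzapine rats. Every olanzapine rat was below every vehicle rat, although olanzapine rat 10 and vehicle rat 9 were close. The mean of Sdhb was 606 ± 104 FPKM in the vehicle group and 478 ± 33.0 FPKM in the olanzapine group (SD, n = 3 each), 0.789 of the vehicle level. Its log2 fold change was -0.33 (SE 0.19, 95% interval -0.77 to 0.10, adjusted p = 0.475 by limma), and with size factors or equal totals the groups of Sdhb overlapped.

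In the anchor both estimates were close to 0. Sdhc was at 466, 397 and 430 FPKM in the vehicle rats and at 404, 484 and 502 FPKM in the olanzapine rats. Sdhd was at 400, 271 and 371 FPKM in the vehicle rats and at 352, 356 and 364 FPKM in the olanzapine rats. The groups overlapped for both genes, with log2 fold changes of 0.10 (SE 0.18) and 0.06 (SE 0.20). The estimate of Sdhd was -0.11 without vehicle rat 9, the lowest of its group. Summed over the complex, the mean FPKM was 1676 ± 239 in the vehicle group and 1525 ± 104 in the olanzapine group (SD, n = 3 each), a difference smaller than the spread of the vehicle rats.

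A ratio within a rat does not depend on how the libraries are scaled. The summed FPKM of Sdha and Sdhb over that of Sdhc and Sdhd was 1.22, 1.16 and 1.08 in vehicle rats 3, 9 and 11 and 0.890, 0.947 and 0.746 in olanzapine rats 4, 10 and 12. All olanzapine rats were below all vehicle rats, with means of 1.15 ± 0.0681 and 0.861 ± 0.103 (SD, n = 3 each). The dimer was thus above the anchor in each vehicle rat and below it in each olanzapine rat. This is a description without a test, since the groups of subunits were set with earlier results of these rats known. Such separation is common: ratios between single genes did so in 19.6% of all pairs of tested genes above 0 in every rat. No background was computed for ratios of group sums.

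**Figure D2:**
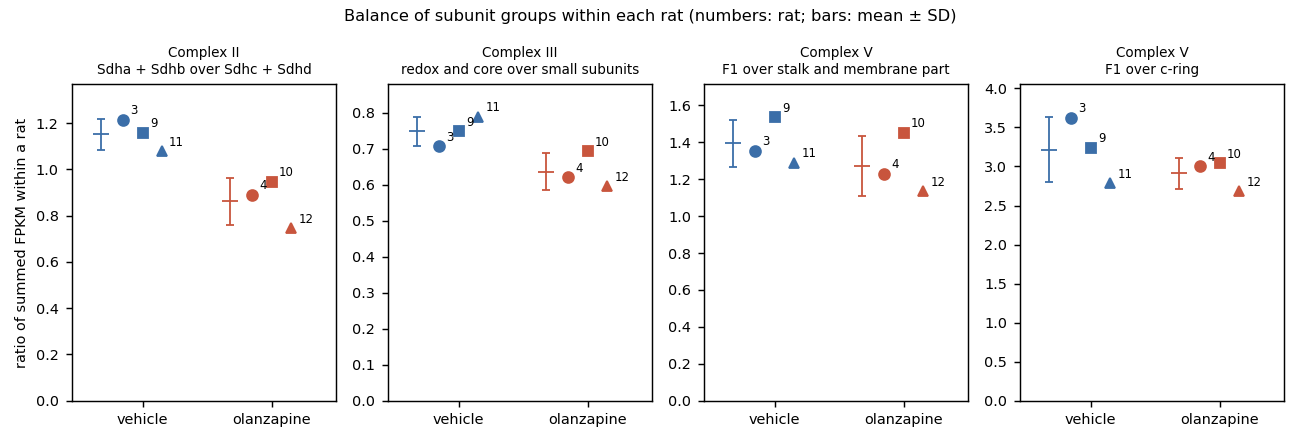
Ratios of summed FPKM of subunit groups within each rat (points, labelled by rat number) with the mean ± SD of each group of 3 rats as bars, on linear axes from 0. The complex II ratio was 1.08 to 1.22 in vehicle and 0.746 to 0.947 in olanzapine rats and the complex III ratio also separated the groups, while both complex V ratios overlapped. Ratios between single genes separated the groups in 19.6% of all pairs of tested genes above 0 in every rat.

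Complex III pairs redox subunits (Cyc1, which is cytochrome c1, and the Rieske iron-sulfur protein Uqcrfs1) and the large core proteins Uqcrc1 and Uqcrc2 with small subunits that surround them (Uqcrb, Uqcrh, Uqcrq, Uqcr10 and Uqcr11). The redox and core group had a median log2 fold change of -0.01 (0.16 with size factors), and the small subunits had a median of 0.22 with 5 of 5 above 0. The lowest estimate of all subunits was that of Uqcrc2, at 533, 331 and 426 FPKM in vehicle rats 3, 9 and 11 and at 298, 348 and 297 FPKM in olanzapine rats 4, 10 and 12. Only olanzapine rat 10 was above a vehicle rat, which was rat 9. The mean was 430 ± 101 FPKM in the vehicle group against 314 ± 29.0 FPKM in the olanzapine group (SD, n = 3 each), with a log2 fold change of -0.43 (SE 0.21, 95% interval -0.92 to 0.06, adjusted p = 0.424 by limma). The other core protein, Uqcrc1, was at 591, 469 and 494 FPKM in the vehicle rats and 410, 581 and 475 FPKM in the olanzapine rats. These ranges overlapped, and the estimate of -0.09 (SE 0.20) changed sign with size factors (0.08) and without vehicle rat 3 (0.01) or olanzapine rat 4 (0.03).

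Among the small subunits, Uqcrh, the hinge protein that sits beside cytochrome c1, was at 730, 570 and 700 FPKM in the vehicle rats and at 786, 805 and 946 FPKM in the olanzapine rats. All olanzapine rats were above all vehicle rats. The log2 fold change of Uqcrh was 0.35 (SE 0.19, adjusted p = 0.460 by limma). Uqcr10 was at 165, 134 and 158 FPKM in the vehicle rats and 183, 171 and 239 FPKM in the olanzapine rats. The groups of Uqcr10 were also apart, with a log2 fold change of 0.37 (SE 0.19, adjusted p = 0.437 by limma). Its row lies on chromosome 15 and spans 435 bases, whereas RefSeq places Uqcr10 on another chromosome, so the row may be a near copy of the gene and the value is uncertain. Uqcrq, the ubiquinone-binding small subunit with the highest level in the complex, was at 1667, 990 and 1028 FPKM in the vehicle rats and at 1083, 1441 and 1397 FPKM in the olanzapine rats. Vehicle rat 3 was the highest of all 6 for this gene, and without vehicle rat 9 the estimate of 0.12 became -0.01.

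Summed over complex III, FPKM was 5617 ± 984 in the vehicle and 6027 ± 657 in the olanzapine rats (SD, n = 3 each), a difference within the spread. The redox and core subunits over the small subunits stood at 0.707, 0.749 and 0.789 in vehicle rats 3, 9 and 11 and at 0.621, 0.694 and 0.596 in olanzapine rats 4, 10 and 12. The groups did not overlap, with the closest pair being vehicle rat 3 and olanzapine rat 10. Ratios between single genes did not overlap in 19.6% of all pairs of tested genes above 0 in every rat. Uqcrb, a matrix-side small subunit, had another row on chromosome 1, 475 bases long, at 94.4, 71.8 and 89.0 FPKM in the vehicle and 99.9, 101 and 107 FPKM in the olanzapine rats. That row was higher in all olanzapine rats (log2 fold change 0.28, adjusted p = 0.491 by limma). The chosen Uqcrb row, at 75.6 to 117 FPKM, overlapped between the groups (log2 fold change 0.22, adjusted p = 0.602 by limma).

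Cytochrome c carries electrons from complex III to complex IV. Its row with the highest mean lies on chromosome 18 (61664137 to 61664455 in Rn5), spans 318 bases and was at 370, 314 and 430 FPKM in the vehicle rats and 400, 432 and 410 FPKM in the olanzapine rats. The groups overlapped, with means of 371 ± 58.0 and 414 ± 16.6 FPKM (SD, n = 3 each) and a log2 fold change of 0.17 (SE 0.18, adjusted p = 0.686 by limma). RefSeq places Cycs on chromosome 4, where the table holds another row that spans 2142 bases, at 18.5, 11.4 and 18.5 FPKM in the vehicle rats and 11.6, 18.6 and 18.8 FPKM in the olanzapine rats. The level listed for the chromosome 18 row was 23.6 ± 3.78 times that of the chromosome 4 row in the vehicle rats (SD, n = 3) and 21.8 to 34.6 times in the olanzapine rats, and which gene its reads came from cannot be told from FPKM. Neither row separated the groups.

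Complex IV was represented by 8 genes, of which 7 were tested. The pseudogene Cox6c-ps1 was listed at 0 in all rats. The median log2 fold change was 0.19, and 6 of 7 were above 0. Cox7c, a small membrane subunit, had the highest estimate, at 1536, 1142 and 1168 FPKM in vehicle rats 3, 9 and 11 and 1502, 1201 and 2226 FPKM in olanzapine rats 4, 10 and 12. Only olanzapine rat 12 was above all vehicle rats, and the log2 fold change was 0.32 (SE 0.27, adjusted p = 0.591 by limma). Cox6c, the most abundant of the tested complex IV genes, was at 1904, 1297 and 1350 FPKM in the vehicle rats and 1678, 1171 and 2254 FPKM in the olanzapine rats. Its estimate of 0.14 was -0.09 without rat 12, the highest of all 6.

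The form of subunit 6b made in most tissues, Cox6b1, was at 216, 191 and 196 FPKM in the vehicle rats and 197, 221 and 286 FPKM in the olanzapine rats, which overlap. The testis form, Cox6b2, was at 0.726, 1.65 and 1.62 FPKM in the vehicle rats and 1.20, 0 and 2.45 FPKM in the olanzapine rats. Its mean was just past the filter of 1 FPKM, and its interval of -1.20 to 0.76 held both the lowest bound of all subunits and 0, so no difference was detectable. Cox5a and Cox5b, which sit on the matrix side of the catalytic core, had estimates of 0.15 and 0.20. Summed FPKM of the tested complex IV genes was 5550 ± 961 in the vehicle and 6489 ± 1555 in the olanzapine rats (SD, n = 3 each). Olanzapine rat 12, at 8223, was above the other 5 rats at 4872 to 6650.

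Complex V is built from a catalytic head (F1, subunits alpha to epsilon), a rotating ring of c subunits in the membrane and a peripheral stalk with further membrane subunits. Its tested genes summed to 17372 ± 3074 FPKM in the vehicle and 19094 ± 2793 FPKM in the olanzapine rats (SD, n = 3 each), and the ranges overlapped. This was the highest sum among the tested genes taken by symbol. The complexes cannot be ranked by it, since the rule leaves out complex IV tissue isoforms and subunits encoded by mitochondrial DNA. Of 15 genes, 14 were tested, with a median log2 fold change of 0.19 and 12 above 0. The gene left out was Atp5f1, the b subunit of the stalk, whose 2 rows on chromosome 2 were listed at 0 in all 6 rats. Of the other stalk and membrane subunits, Atp5i was at 2059 to 3455 FPKM, so this 0 can be a failed estimate.

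The 2 estimates below 0 in complex V were those of the catalytic head's alpha and beta subunits, Atp5a1 and Atp5b. Atp5a1 was at 1925, 1714 and 1679 FPKM in the vehicle rats and 1407, 1851 and 1395 FPKM in the olanzapine rats. Olanzapine rats 4 and 12 were below all vehicle rats while rat 10 was not, and the log2 fold change was -0.20 (SE 0.20, adjusted p = 0.661 by limma). Atp5b was at 3371, 2575 and 2489 FPKM in the vehicle rats and 2184, 2782 and 2410 FPKM in the olanzapine rats. Here too olanzapine rats 4 and 12 were below all vehicle rats, with a log2 fold change of -0.19 (SE 0.22, adjusted p = 0.706 by limma). The F1 subunits gamma, delta and epsilon (Atp5c1, Atp5d and Atp5e) had estimates of 0.14, 0.20 and 0.39. The median of the stalk and membrane subunits was 0.29, with 6 of 6 above 0.

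The highest estimate of all subunits was that of Atp5h, the d subunit of the stalk, at 29.6, 20.6 and 41.5 FPKM in vehicle rats 3, 9 and 11 and 39.5, 43.4 and 47.3 FPKM in olanzapine rats 4, 10 and 12. Olanzapine rat 4 was below vehicle rat 11, so the groups overlapped. The mean was 30.6 ± 10.5 FPKM in the vehicle and 43.4 ± 3.90 FPKM in the olanzapine group (SD, n = 3 each), with a log2 fold change of 0.54 (SE 0.25, 95% interval -0.02 to 1.11, adjusted p = 0.393 by limma). This row lies on chromosome 16 and spans 596 bases, while RefSeq places the gene on another chromosome, so the value is uncertain. It was far below other stalk subunits such as Atp5o, the oligomycin sensitivity protein, at 771 to 1442 FPKM.

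Subunit c, of the rotating ring, is the product of 3 genes that encode the same mature protein behind different import signals. Atp5g1 was at 719, 602 and 739 FPKM in the vehicle rats and 773, 794 and 1304 FPKM in the olanzapine rats. All olanzapine rats were above all vehicle rats, rat 12 far more than the others, with means of 686 ± 73.9 and 957 ± 300.5 FPKM (SD, n = 3 each) and a log2 fold change of 0.44 (SE 0.24, adjusted p = 0.460 by limma). Atp5g2 was at 695, 561 and 512 FPKM in the vehicle rats and 602, 598 and 800 FPKM in the olanzapine rats. Atp5g3, the most abundant of these genes, was at 1441, 1191 and 1495 FPKM in the vehicle rats and 1304, 1494 and 1584 FPKM in the olanzapine rats. Both overlapped between the groups, with estimates of 0.18 (SE 0.21) and 0.09 (SE 0.20), and the latter was -0.01 without vehicle rat 9. As a share of the FPKM of the 3 genes, Atp5g1 took 25.2%, 25.6% and 26.9% in the vehicle rats and 28.9%, 27.5% and 35.4% in the olanzapine rats. The share was higher in all olanzapine rats, with vehicle rat 11 and olanzapine rat 10 close. For comparison, ratios between single genes separated the groups in either direction in 19.6% of all pairs of tested genes above 0 in every rat.

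The F1 subunits over the stalk and membrane subunits stood at 1.35, 1.54 and 1.29 in the vehicle rats and 1.23, 1.45 and 1.14 in the olanzapine rats, and F1 over the c-ring at 3.62, 3.24 and 2.79 against 3.00, 3.04 and 2.69. Both ratios overlapped between the groups. Atp5s and Atp5sl, which RefSeq names Dmac2l and Dmac2 after the distal membrane arm of complex I, matched the symbol rule and were left out of the complex V values. Atp5s was at 6.63 to 8.82 FPKM over all rats, Atp5sl was at 26.1 ± 5.30 FPKM in the vehicle group and 31.1 ± 7.61 FPKM in the olanzapine group (SD, n = 3 each), and both overlapped.

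**Figure D3:**
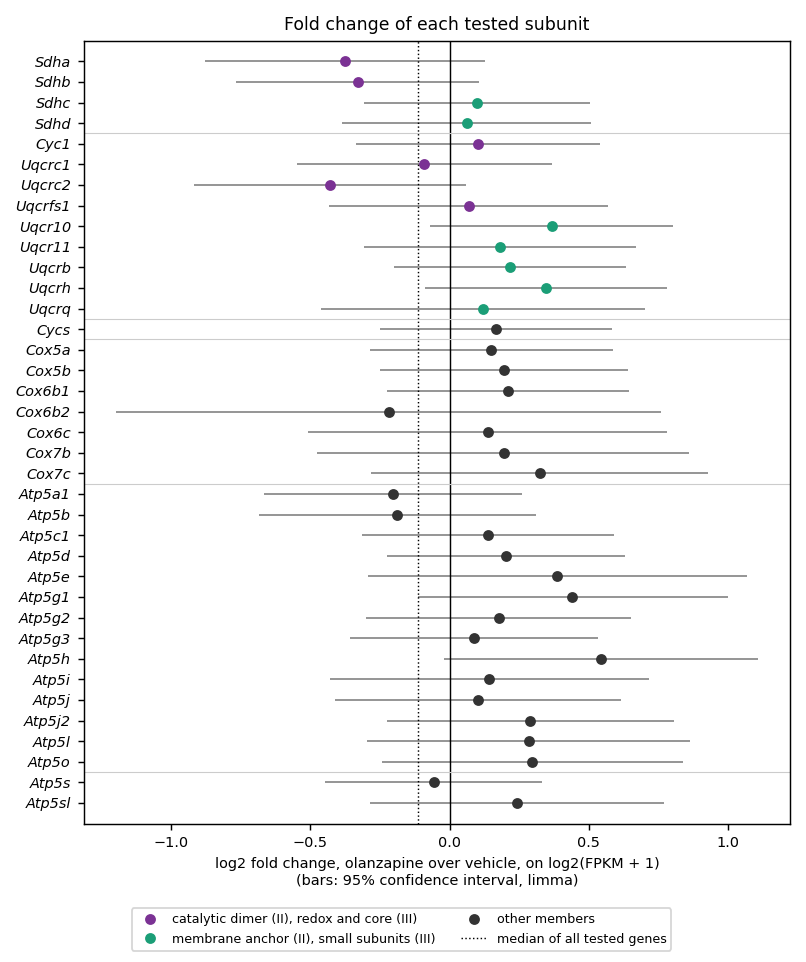
Log2 fold change of each tested subunit with its 95% confidence interval from limma (n = 3 rats per group), grouped by complex, with the median of all tested genes dotted at -0.11. Every interval includes 0, the lowest estimates are those of Uqcrc2, Sdha and Sdhb and the highest that of Atp5h.

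Pairs of subunits were also compared within each rat, which removes the scaling of the library. Among the 630 pairs of the tested subunits other than Cox6b2, the ratio of both FPKM values did not overlap between the groups in 111 (17.6%), against 19.6% of all pairs of tested genes above 0 in every rat. Sdhb and Uqcrc2, with estimates among the lowest of the subunits, stood in 26 of their 35 pairs each (74.3%). Sdha stood in 15, Atp5b in 10, Atp5a1 in 8, Sdhc in 7, Sdhd in 5 and Uqcrc1 in 1 of 35. The pairs of a gene all share its values, so they are not independent of each other or of its estimate. Pairs within a complex did so in 23 of 149 (15.4%), and within complex II in 3 of 6, where the same 19.6% is the background.

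Levels of the subunits varied together from rat to rat within each group. Vehicle rat 3 had the highest level of its group in 31 of 37 subunits (83.8%), against 39.8% of all tested genes, and vehicle rat 9 the lowest in 28 (75.7%), against 40.6%. In the olanzapine group rat 12 was highest in 26 (70.3%), against 26.5%, and rat 4 lowest in 20 (54.1%), against 17.7%. Vehicle rat 3 also had the highest sum of slow fiber markers, at 10978 FPKM, the lowest sum of IIb fiber markers, at 3015 FPKM, and the lowest sum of blood markers, at 1725 FPKM against 4639 to 13873 in the other 5 rats. Vehicle rat 9 had the highest sum of blood markers. Fibroblast markers were also lowest in vehicle rat 3, at a sum of 327 FPKM against 464 to 1274 in the other rats. Adipocyte markers were highest in olanzapine rat 4, at a sum of 766 FPKM against 245 to 434 in the other rats. The part of these differences in the subunit levels was not tested. In olanzapine rat 12, 30 of 36 subunits were above their own mean over the 6 rats. The 6 below it were Sdha, Sdhb, Uqcrc1, Uqcrc2, Atp5a1 and Atp5b, that is the catalytic dimer of complex II, both core proteins of complex III and the alpha and beta subunits of ATP synthase.

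**Figure D4:**
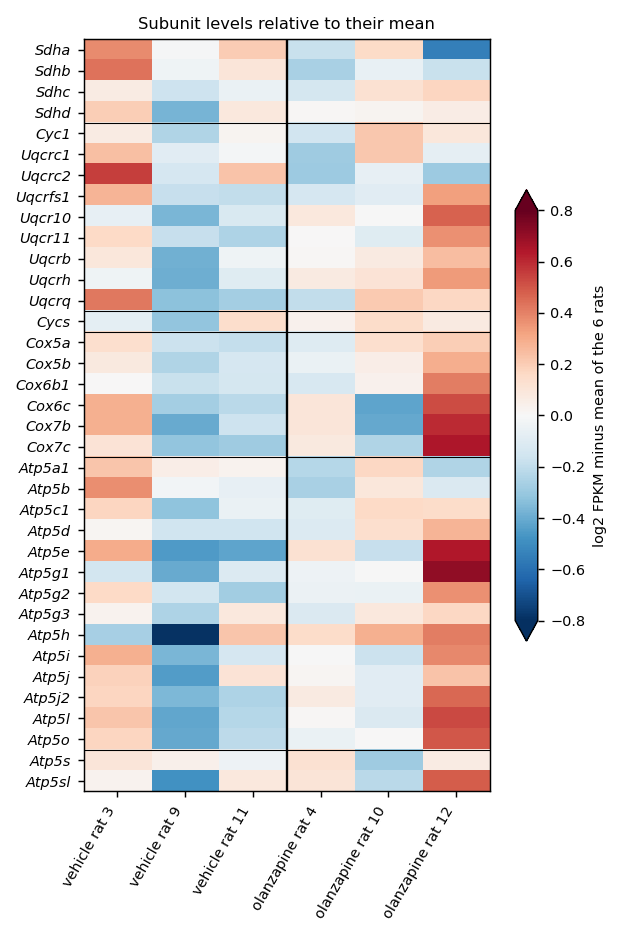
Level of each tested subunit in each rat as log2 FPKM minus its mean over the 6 rats (red above, blue below, colors end at 0.8), without Cox6b2, which was at 0 in 1 rat. The column of vehicle rat 9 is mostly blue and that of olanzapine rat 12 mostly red, except at Sdha, Sdhb, Uqcrc1, Uqcrc2, Atp5a1 and Atp5b.

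Other genes of the pathway were read from the same fit, and none passed the adjusted threshold by limma. Of the assembly factors of complexes II to V, 28 were tested, with a median log2 fold change of -0.14 and 19 below 0, against 64.3% of all tested genes. Size factors gave a median of 0.02 with 16 of 28 above 0, against 53.4% of all tested genes. At an unadjusted p under 0.05 by limma, 5 were lower and 1 higher, where 9.45% of all tested genes were lower and 3.79% higher. The lowest estimate was that of Taco1, a translational activator of the mitochondrially encoded Cox1, at 6.99, 4.94 and 5.47 FPKM in the vehicle rats and 2.23, 3.31 and 3.24 FPKM in the olanzapine rats. Its groups did not overlap (log2 fold change -0.79, SE 0.20, adjusted p = 0.177 by limma). The highest was that of Pet100, a complex IV assembly factor, at 17.3, 14.5 and 16.4 FPKM against 21.5, 21.1 and 24.6 FPKM (log2 fold change 0.45, SE 0.16, adjusted p = 0.295 by limma), also without overlap.

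Complex IV subunits with tissue isoforms, which the symbol rule leaves out, had a median of 0.06 over 8 tested genes, from -0.28 for Cox8a, the liver form, to 0.43 for Cox7a2. The latter was listed at 0 in 4 of 6 rats, and its estimate carries an SE of 1.25. The muscle forms Cox6a2 and Cox8b were at 3702 to 5534 and 3171 to 6224 FPKM and overlapped. Cox8a, at 108 to 138 FPKM in the vehicle and 100 to 106 FPKM in the olanzapine rats, was lower without overlap. The partners of ATP synthase ran from -0.25 for Slc25a5 to 0.30 for Slc25a4, the muscle ADP/ATP carrier, with a median of -0.06 over 5 genes (0.11 with size factors). Slc25a5, at 7.41 to 8.89 against 5.94 to 7.33 FPKM, was also lower without overlap. In each list this was 1 gene, of 8 and of 5, against 14.6% of all tested genes. Of 6 subunits encoded by mitochondrial DNA that were listed, 4 were matched by symbol, MT-CYB and MT-CO1 were not analysed here and MT-ATP8 was listed at 0 in all rats. The 3 that were tested had estimates of -0.27 (MT-CO3), -0.24 (MT-ATP6) and -0.21 (MT-CO2). They summed to 100025, 77031 and 89670 FPKM in the vehicle rats and to 95943, 53167 and 82288 FPKM in the olanzapine rats, so olanzapine rat 10 was lowest and the groups overlapped.

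TCA cycle enzymes, which work in the matrix beside complex II, had a median of -0.31 over 14 tested genes with 12 below 0, against 64.3% of all tested genes. With size factors the median was -0.13 and 5 of 14 were above 0, against 53.4%. At an unadjusted p under 0.05, 3 of them were lower and 0 higher by limma, against 9.45% and 3.79% of all tested genes. The lowest estimate was that of Idh2, the NADP-linked isocitrate dehydrogenase of mitochondria, at 942, 652 and 655 FPKM in the vehicle rats and 325, 370 and 325 FPKM in the olanzapine rats. The groups of Idh2 were far apart, but the adjusted p missed the threshold (log2 fold change -1.12, SE 0.20, adjusted p = 0.0702 by limma). The highest was that of Idh3a, a subunit of the NAD-linked isocitrate dehydrogenase, at 0.21. Complex II, which belongs to both the cycle and the respiratory chain, had a median of -0.14 (0.04 with size factors). Its estimates were -0.38 (Sdha), -0.33 (Sdhb), 0.10 (Sdhc) and 0.06 (Sdhd), and each interval included 0. The cycle genes ran from -1.12 to 0.21 and complex III from -0.43 to 0.37, so these estimates lie within both ranges.

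**Figure D5:**
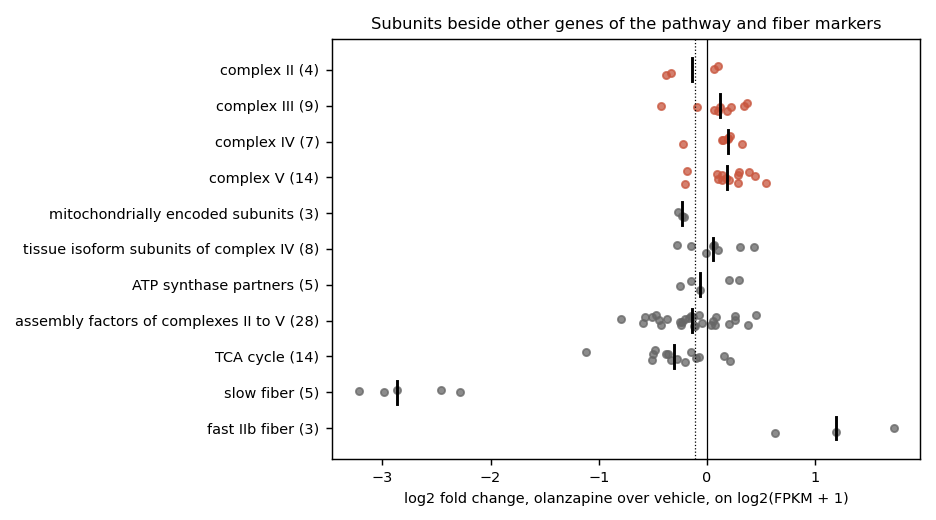
Log2 fold change of every tested gene (points, spread vertically for visibility only) in complexes II to V and in the other lists, with the number tested in parentheses, the list median as a black bar and the median of all tested genes dotted at -0.11. The subunits lie between -0.43 and 0.54, whereas the 5 slow fiber markers have a median of -2.87.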

How the data were processed

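Gastrocnemius RNA of 6 rats was sequenced by the authors with single-end reads, all libraries in 1 pool. TopHat 2.0.9 and assembly Rn5 were used by the authors for alignment. Cufflinks 2.2.1 then gave the authors' FPKM per gene, from reads with a unique position, which leaves out reads that match near-identical copies. The deposited table holds 1 FPKM column per rat. Its other deposited columns, the authors' group means, standard errors, signed fold changes and flags of their test, were not used. FPKM + 1 was taken to log2, genes averaging 1 FPKM or more were fitted with limma 3.58.1 in R 4.3.3 (empirical Bayes with a trend in the variance), and p-values were adjusted by Benjamini-Hochberg over 10285 genes. Fold changes on this scale understate those of low genes. The script was tested on simulated data. The depth is unknown beyond its relative size, so no counting interval is given, and the rats are the replicates.

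The subunits, gene lists and markers were chosen with earlier results of these data known. The rule for values per rat took all complex II genes, Cycs, the c-ring genes, and, in complexes III to V, the most abundant gene and the 2 lowest and 2 highest estimates. List genes were named at their extremes. Other genes were named after their values were seen. Promoters came from RefSeq (GRCr8), and all 39 symbols matched a RefSeq gene. Alternatives were other pseudocounts, filters, scalings, a variance model without trend, the Poisson test and leaving out each rat. Protein sequences were not used here, so a planned comparison with protein length was not run.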

Additional observations from a re-analysis of the deposited data

How the results depend on the processing

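No subunit passed the adjusted threshold in these limma alternatives (a pseudocount of 0.1 FPKM, no filter, a filter at 10 FPKM, size factors, equal totals without the 50 most abundant genes, no trend, or 1 rat left out), whereas over all tested genes these settings called 14 to 73 genes against 52. The Poisson test marked 6 subunits lower and 18 higher at an unadjusted p under 0.05, against 7.81% and 6.1% of all tested genes. It takes no account of the spread between rats, and its p is smaller for more abundant genes at the same fold change. Without a rat, the subunits lower without overlap numbered 1 to 5 (1 with all rats) and those higher 3 to 17 (3 with all rats), while over all tested genes 17.1% to 28.2% were lower and 7.37% to 11.5% higher. With size factors 0 were lower without overlap (8.85% of all tested genes) and 4 (10.8%) were higher (10.6% of all tested genes). With equal totals 0 were lower (12.0%) and 5 (13.5%) higher (6.54%). With the filter at 10 FPKM 1 (2.86%) was lower (12.0%) and 3 (8.57%) higher (9.45%). The share higher thus stood above that of all tested genes with equal totals, but not with size factors or this filter beyond 10.8% against 10.6%. The median of complex II was 0.04 with size factors against -0.14, and -0.27 to -0.02 without a rat. The medians of complexes III, IV and V were above 0 without any single rat, at 0.01 to 0.31, 0.06 to 0.28 and 0.09 to 0.31. Without the rows that lie on another chromosome than the RefSeq gene, an alternative chosen after seeing the data, the medians of complexes III and V were 0.11 and 0.18. Summing the rows that share a symbol was run for the complex medians only. Of 251 limma results of the 21 subunits described by rat under the alternatives first listed here, 8 changed sign, and their adjusted p ran from 0.306 to 0.995 in limma. Uqcrc1 was at 0.084 with size factors. Without a rat, Sdhd ran from -0.109 to 0.173, Uqcrc1 from -0.223 to 0.027, Uqcrq from -0.014 to 0.362, Cox6b2 from -0.625 to 0.269, Cox6c from -0.091 to 0.38 and Atp5g3 from -0.012 to 0.168. The cause of these shifts was not tested. With 2 rats left in a group, the spread was pooled over both groups. No paired analysis was possible because the labels give the groups no shared replicate numbers.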
